A study of Mus musculus with 6 samples.

Results

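Lysosome genes were followed in cells grown from dissected RPE and choroid tissue of the mouse eye. The RPE, or retinal pigment epithelium, is a pigmented sheet that supports the photoreceptors, and the choroid is the bed of vessels that feeds it. The set was a fixed list of 39 genes for lysosomal membrane proteins, proton pump subunits, hydrolases and lipid-handling proteins, taken by symbol, out of 52636 genes in the count table. All 39 were found in the table. The donors were C57BL/6J male mice, with labelled ages of 12 to 16 months. Of the 6 samples, 3 were Dram2 wt/wt and the other 3 Dram2 ko/ko, from a constitutive knockout in which CRISPR/Cas9 removed exon 4 of Dram2 in every tissue. Gene expression was read from single cells with a droplet method that counts molecules at the 3′ end of polyadenylated RNA by unique molecular identifiers (UMIs).

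The lysosome is the acidic compartment in which cells break down proteins, glycans and lipids delivered by endocytosis, phagocytosis and autophagy. A proton pump keeps it acidic, heavily glycosylated membrane proteins protect its wall, and each hydrolase cuts a particular bond, so that loss of 1 enzyme can cause a storage disease. In the eye the RPE takes up and digests the shed tips of photoreceptors every day, and Dram2 itself codes for a lysosomal membrane protein linked to autophagy. Many lysosome genes share a short promoter sequence, the CLEAR element, which is read by the transcription factor TFEB and its relatives.

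Because this shared letter pattern sets many lysosome genes apart from other genes, promoter windows were searched for it. Each window held 300 bases, 250 before and 50 after the transcription start, in RefSeq on GRCm38.p6, and 33 of the 39 genes had one. The 8 letters TCACGTGA, which read the same on both strands, were present in 6 of these 33 genes (18.2%) and in 304 of 27025 genes with a window (1.12%). The shorter core CACGTG, which lies inside those 8 letters, was present in 14 of 33 (42.4%) and in 8.09% of all. The genes with the long form were Ctsa, Cln3, Ctsd, Mcoln1, Atp6v0d1 and Gla. Their sites are shown on the gene's strand, with the 8 letters in capitals.
Ctsa, chr2:164833752-164833775, plus strand: gcaaactgTCACGTGAtgcagatg
Ctsa, chr2:164833769-164833792, plus strand: gcagatgcTCACGTGAccagagct
Cln3, chr7:126583343-126583366, minus strand: gggtactgTCACGTGAcccccaac
Ctsd, chr7:142387911-142387934, minus strand: cccgcgtcTCACGTGAcccgttga
Mcoln1, chr8:3500465-3500488, plus strand: cgccccgcTCACGTGAccgcggcg
Atp6v0d1, chr8:105566053-105566076, minus strand: tactgcggTCACGTGAgacgcggt
Gla, chrX:134601218-134601241, minus strand: gcgattgaTCACGTGAgcatctac
Gla, chrX:134601185-134601208, minus strand: gatctcggTCACGTGAgcaactct
In Ctsa and Gla the pattern occurred at 2 places in the window. A letter match is a description of the window and was not tested for binding by any factor.

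The samples held 2140 to 6648 cells and 96808998 to 122746184 UMIs each, with a median of 16453 to 47373 UMIs per cell. Levels are in CPM, a gene's UMIs scaled to a common total over all genes in the same sum of cells, and since each molecule is counted once they do not depend on gene length. The deposited cell names gave 8 cell types and, within the fibroblastic types, 9 sub-clusters. Cells carried serial numbers and not barcodes, so barcodes shared between libraries were not counted. In cells named Pericyte, the 6 Schwann cell markers summed to 1409 CPM and the 7 pericyte markers to 238 CPM, with Kcnj8 and Higd1b at 0 UMIs, so that name went against its markers. In RPE cells the 12 RPE markers summed to 828 CPM, but Rpe65, the visual cycle isomerase that marks mature RPE, was at 0.693 ± 0.617 CPM (SD, n = 6). Dram2 ko/ko replicate 3 was the only sample of batch 2, so values without it are also within-batch values. Nothing stated whether samples of a genotype came from separate animals or cultures, so p-values measure only the spread between these samples, which may be technical.

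The lysosome genes made up the largest share of UMIs in myeloid cells and the smallest in Fibroblast-like cells. Their summed share was 1.81% ± 0.28 of UMIs in Myeloid cells (SD, n = 4, since 2 samples held fewer than 10 such cells). It was 1.01% ± 0.029 in Fibroblast 2, 0.919% ± 0.021 in Fibroblast and 0.912% ± 0.101 in RPE (n = 6 each). The Pericyte cells had 0.836% ± 0.055, Fibroblast proliferating 0.728% ± 0.028, Endothelial 0.675% ± 0.06 and Fibroblast-like 0.427% ± 0.065. Fibroblast and RPE did not differ beyond the spread between their samples, whereas no Fibroblast-like sample reached any sample of the other types. These levels are a description, since the clusters were made from the same cells. The Fibroblast-like cells also had few UMIs, with a sample median of 4306 to 5219 per cell, against 17340 to 58112 in Fibroblast. The part of this depth difference in the lower share was not tested. Without mitochondrial counts in the total, the Fibroblast-like share was 0.486% ± 0.055, still the lowest mean of the types.

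**Figure D1:**
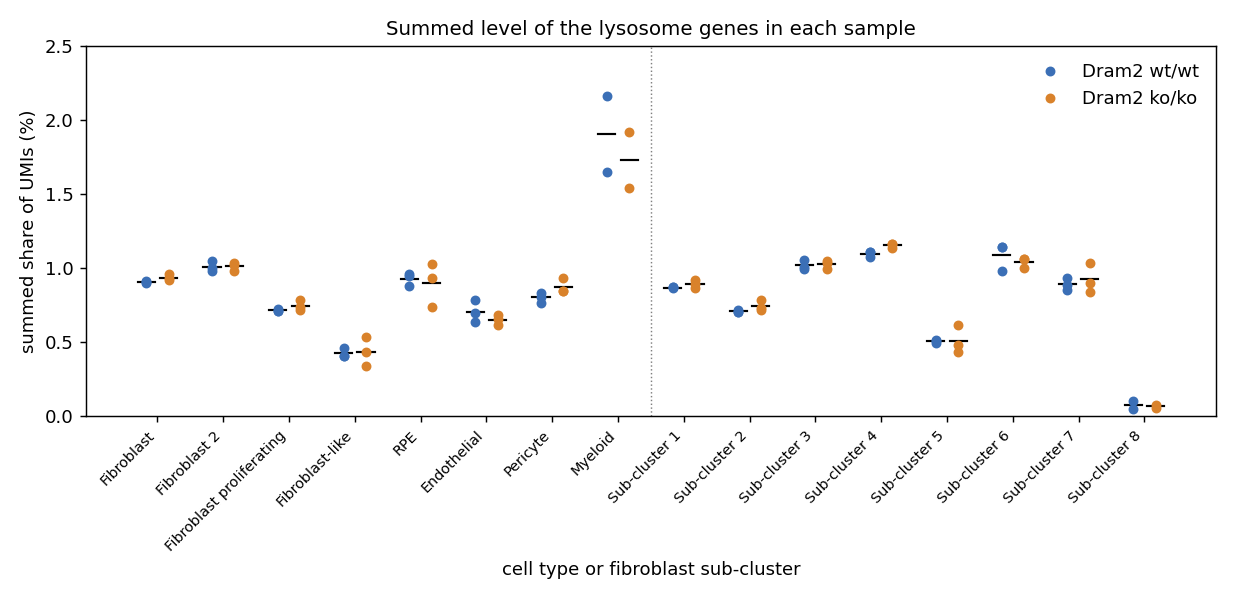
Summed share of UMIs (%) held by the 39 lysosome genes in each sample (points) by cell type, left of the dotted line, and by fibroblast sub-cluster, right of it, with the group mean as a bar. Myeloid cells sit highest, at 1.54% to 2.16%, and Sub-cluster 8 sits lowest, at 0.0689%, on this total, which includes mitochondrial counts. Without them it was at 0.563%, above Sub-cluster 5 (0.521%) and Fibroblast-like cells (0.486%).

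By gene, 22 of the 39 members had their highest mean CPM in Myeloid cells, 9 in Fibroblast 2, 4 in Endothelial, 2 in RPE, and 1 each in Fibroblast and Pericyte. The lowest mean was in Fibroblast-like cells for 31 members. Each type was set against Fibroblast, the most numerous with 12651 cells, over genes with a mean of at least 10 CPM, and a gene was counted where every sample of one type lay above or below every sample of the other. In Myeloid cells 15 of 34 members were higher in this sense (10.1% of all genes) and 2 were lower (10.3%). In Fibroblast 2, 10 of 32 were higher (22.6%) and 7 lower (17.3%). In Fibroblast proliferating, 0 of 31 were higher (21.8%) and 17 lower (12.6%). In Fibroblast-like cells, 0 of 29 were higher (6.95%) and 25 lower (46.1%). In RPE, 3 of 33 were higher (14.5%) and 9 lower (15.8%). In Endothelial cells, 2 of 34 were higher (18.6%) and 12 lower (14.5%), and in Pericyte cells 6 of 34 were higher (22%) and 11 lower (13.7%). Some counted members were under 10 CPM on average in the type where they were lower, so they passed the filter through the other type alone and had to differ. These were Ctss in Myeloid, Naglu in Pericyte and Arsb in RPE among the higher, and Neu1, Npc1 and Ctsf in Fibroblast-like cells among the lower. All genes held such cases too, 392 of the 899 higher in Myeloid and 950 of the 3693 lower in Fibroblast-like cells.

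Among the lysosomal membrane proteins, Lamp1 and Lamp2, the main glycoproteins of the lysosomal wall, were highest in Fibroblast 2. Lamp1 was at 1571 ± 67 CPM there, 1144 ± 46 in Fibroblast, 1296 ± 45 in Myeloid and 839 ± 61.1 in RPE. It was at 972 ± 112 CPM in Pericyte, 887 ± 42.8 in Fibroblast proliferating, 887 ± 64 in Endothelial and 518 ± 110 in Fibroblast-like cells. Lamp2 was at 450 ± 40.6 CPM in Fibroblast 2, 379 ± 33.8 in Myeloid, 364 ± 16 in Fibroblast and 293 ± 66.1 in RPE, and between 133 and 276 in the other 4 types. Every Fibroblast 2 sample lay above every Fibroblast sample for both genes. For Lamp1, 19.9% of the 31-base words in its last 400 bases also occur in transcripts of Grtp1. No gene overlaps Lamp1 on its own strand, and the effect on its count was not tested. Cd63, a tetraspanin of late endosomes, lysosomes and exosomes, was lowest in Endothelial cells, at 135 ± 35 CPM, where its 6 samples (81.1 to 183 CPM) all lay under the Fibroblast samples (428 to 641 CPM). Scarb2, the receptor that carries beta-glucocerebrosidase to the lysosome, was highest in the cells named Pericyte, at 141 ± 26 CPM against 62.3 ± 5 in Fibroblast. Npc1, which exports cholesterol, Mcoln1, a lysosomal calcium channel, and Cln3, a membrane protein mutated in Batten disease, had lower levels. Their highest means were 52.2 CPM in Myeloid cells for Npc1, 22.8 in Myeloid for Cln3 and 13.5 in Fibroblast 2 for Mcoln1.

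Of the proton pump subunits, Atp6v0d1, part of the membrane sector, was at 232 ± 6.21 CPM in Fibroblast 2 and 110 ± 5.52 in Fibroblast proliferating. Atp6v1h, part of the catalytic sector, lay between 49.3 and 81.7 CPM across the means of the 8 types. Atp6ap1, an accessory protein of the pump, was at 249 ± 18.3 CPM in Fibroblast and 83.3 ± 14.2 in Fibroblast-like cells.

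Among the cathepsins, the proteases of the lysosome, Ctss (chromosome 3, 95526786 to 95556403, plus strand of GRCm38 in GENCODE), a cathepsin of antigen-presenting cells, was at 742 and 1129 CPM in the Dram2 wt/wt Myeloid samples and at 862 and 1156 CPM in the Dram2 ko/ko ones. Its mean in each of the other 7 types was at most 0.322 CPM. For comparison, the myeloid lysozyme Lyz2 was at 10629 CPM in Myeloid and 3.52 CPM in Fibroblast cells. Ctsd, the main aspartic protease, was at 3966 ± 1096 CPM in Myeloid cells against 1078 ± 93.9 in Fibroblast, and Ctsb, a cysteine protease, was at 2801 ± 744 against 555 ± 47.6. In RPE, Ctsd was at 1595 ± 151 CPM, and its lowest sample (1443) lay above the highest Fibroblast sample (1228). Its means in the other types were 1348 ± 188 CPM in Endothelial, 1185 ± 187 in Pericyte, 1067 ± 92.2 in Fibroblast 2, 734 ± 45.5 in Fibroblast proliferating and 512 ± 107 in Fibroblast-like cells. Those of Ctsb were 740 ± 77.7 CPM in Fibroblast 2, 634 ± 33.1 in RPE, 557 ± 112 in Pericyte, 453 ± 38.6 in Fibroblast proliferating, 391 ± 83.4 in Endothelial and 259 ± 28.9 in Fibroblast-like cells. For both genes every Myeloid sample lay above every Fibroblast sample. Ctsh, an aminopeptidase, went the other way in RPE, at 40.2 ± 15.2 CPM against 229 ± 25.4 in Fibroblast. Its RPE samples ranged from 17.5 to 56.2 CPM and its Fibroblast samples from 201 to 263. Ctsl, a cysteine protease of broad use, was at 2474 ± 528 CPM in Myeloid, 1730 ± 230 in Fibroblast, 1713 ± 132 in Fibroblast 2 and 1629 ± 475 in RPE. It was at 1420 ± 169 CPM in Pericyte, 1378 ± 209 in Fibroblast proliferating, 999 ± 99.7 in Endothelial and 679 ± 141 in Fibroblast-like cells. Ctsz, a carboxypeptidase, was at 665 ± 148 CPM in Myeloid and 622 ± 36.8 in Fibroblast 2 against 387 ± 27.5 in Fibroblast, and no sample of either type overlapped with Fibroblast. Ctsf, a cysteine cathepsin, was highest in Endothelial cells, at 40.7 ± 11.1 CPM against 26.8 ± 0.942 in Fibroblast, again without overlap. For Ctsb, 33.3% of the 31-base words in its last 400 bases also occur in transcripts of Fdft1. No gene overlaps Ctsb on its own strand, and the effect on its count was not tested.

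Among the glycosidases, Gla (chromosome X, 134588149 to 134601125, minus strand), the alpha-galactosidase that is deficient in Fabry disease, was highest in Fibroblast 2. It was at 87.5, 114 and 114 CPM in the Dram2 wt/wt samples of that type and at 96.2, 87.3 and 99.4 CPM in the Dram2 ko/ko samples, against a mean of 28.4 ± 0.79 in Fibroblast. All 6 Fibroblast 2 samples lay above all Fibroblast samples, and the mean was more than 3 times as high. Myeloid cells had 66.4 ± 26.9 CPM of Gla (SD, n = 4), also above all Fibroblast samples. Man2b1, the lysosomal alpha-mannosidase, ran the other way, at 28.5 ± 4.96 CPM in Fibroblast 2 and 66.7 ± 12 in Fibroblast. Its level was uneven among the fibroblast sub-clusters, at 42.8 ± 6.2 CPM in Sub-cluster 1, 31.5 ± 4.13 in Sub-cluster 3 and 267 ± 20.3 in Sub-cluster 4. The part of Sub-cluster 4 in the Fibroblast mean was not tested. Its Myeloid level was 122 ± 29.9 CPM. Gusb, beta-glucuronidase, was at 165 ± 3.62 CPM in Myeloid and 116 ± 20.8 in Pericyte cells against 65.2 ± 2.56 in Fibroblast. Hexa, the alpha subunit of beta-hexosaminidase that is lost in Tay-Sachs disease, was at 291 ± 67.8 CPM in Myeloid, 140 ± 4.3 in Fibroblast and 79.5 ± 24.9 in Endothelial cells. Gaa, the acid alpha-glucosidase that is lost in Pompe disease, was at 138 ± 20.6 CPM in Fibroblast 2, 107 ± 9.08 in Fibroblast and 40.5 ± 11.6 in Endothelial cells. Neu1, the lysosomal sialidase, was at 63.1 ± 25.6 CPM in Myeloid and 39.7 ± 2.46 in Fibroblast 2 against 25 ± 1.37 in Fibroblast. Manba and Idua, for beta-mannosidase and alpha-iduronidase, had means of at most 10.4 and 7.64 CPM in any type.

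The sulfatases and sulfamidase, which remove sulfate from glycosaminoglycans and sulfatides, had low counts, with no mean above the 29.7 CPM of Arsa in Endothelial cells. Arsa, arylsulfatase A, was at 29.7 ± 8.19 CPM there and 10.2 ± 1.09 in Fibroblast, and Arsb was at 16.1 ± 3.98 CPM in RPE and 6.84 ± 0.719 in Fibroblast. Of the words in the last 400 bases, 26.7% occur in C230037L18Rik for Arsa and 49.9% in Gm26527 for Arsb. On its own strand no gene overlaps Arsa and only Mir5624 overlaps Arsb, and the effect on either count was not tested. Of the lipid-handling genes, Lipa, the acid lipase that frees cholesterol from its esters, was at 252 ± 105 CPM in Pericyte and 271 ± 45.4 in Myeloid cells against 56.7 ± 6.46 in Fibroblast. Its Pericyte samples ranged from 102 to 413 CPM and did not overlap with Fibroblast (48.3 to 64.9). Psap, the precursor of the saposins that help lipid hydrolases, was at 842 ± 224 CPM in Myeloid cells, 476 ± 107 in Pericyte, 418 ± 65.5 in RPE and 341 ± 36.4 in Fibroblast 2. It was at 322 ± 20.6 CPM in Fibroblast, 269 ± 13.1 in Fibroblast proliferating, 221 ± 66 in Endothelial and 121 ± 34.6 in Fibroblast-like cells. Npc2 was at 991 ± 15.3 CPM in Myeloid and 327 ± 38.3 in Endothelial cells. Asah1, the acid ceramidase, was highest in Fibroblast at 510 ± 55.9 CPM, and Smpd1, the acid sphingomyelinase, lay between 27.2 and 69.6 CPM in the means of the 8 types. Of the members at 10 CPM or more over both types, 7 had a mean in Fibroblast-like cells at least 3 times below that in Fibroblast, without overlap, namely Man2b1, Npc1, Lipa, Gaa, Tpp1, Glb1 and Ctsf. Tpp1, the tripeptidyl peptidase deficient in a childhood form of Batten disease, ranged there from 26.6 to 79.9 CPM and in Fibroblast from 183 to 273 CPM, without overlap. Myeloid sums also held 3286 CPM of the 7 fibroblast markers, and the part of such RNA from other cells in the Myeloid values was not tested.

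**Figure D2:**
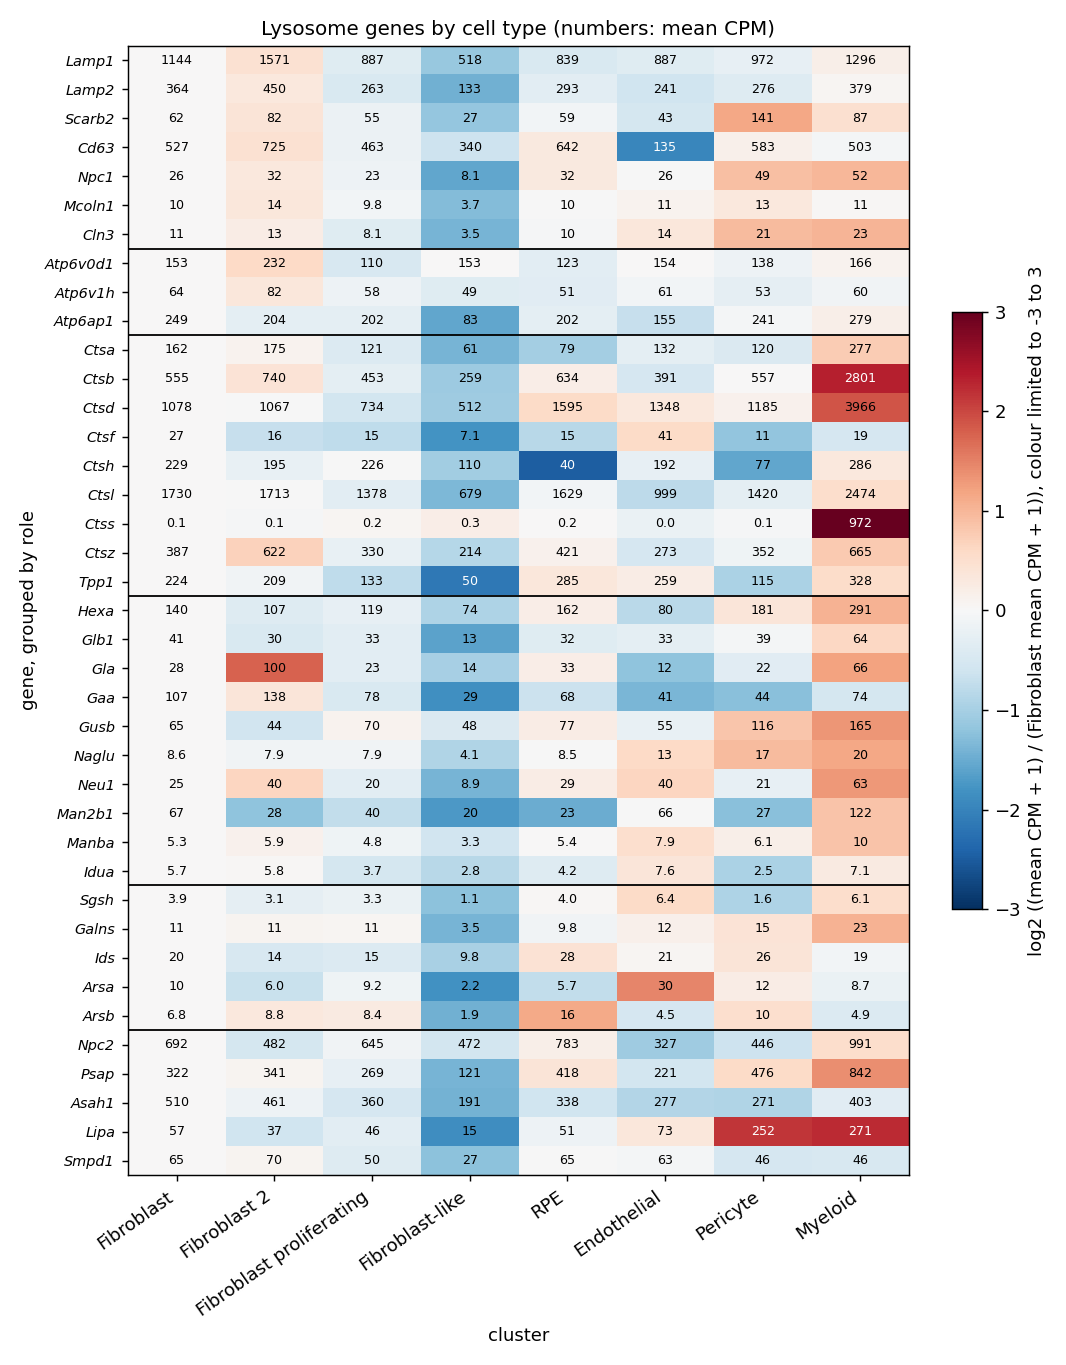
Mean CPM of each lysosome gene (rows, grouped by role) in each cell type (columns, mean over samples); colour shows the log2 ratio to Fibroblast with a pseudocount of 1 CPM. Ctss at 972 CPM and Ctsb at 2801 CPM stand out in Myeloid cells, Gla is highest in Fibroblast 2, and the Fibroblast-like column is mostly blue.

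Within the fibroblastic cells, Sub-cluster 4 (1558 cells) carried a higher share of lysosome gene UMIs, 1.12% ± 0.034, than Sub-cluster 1 with 0.878% ± 0.022 (n = 6 each). This was not particular to Sub-cluster 4, as Sub-cluster 3 was at 1.02% ± 0.028 and Sub-cluster 6 at 1.06% ± 0.067. Without mitochondrial counts in the total, Sub-cluster 6 was at 1.33% ± 0.078 and Sub-cluster 4 at 1.17% ± 0.034. The highest mean CPM was in Sub-cluster 6 for 14 members and in Sub-cluster 4 for 11. Of 32 members at 10 CPM or more, 17 were higher in Sub-cluster 4 than in Sub-cluster 1 without overlap of samples, against 28.3% of all genes, and 0 were lower (10.3%). Man2b1 led them. It was at 261, 267 and 281 CPM in the Dram2 wt/wt samples of Sub-cluster 4 and at 288, 231 and 276 CPM in the Dram2 ko/ko samples, against a mean of 42.8 ± 6.2 in Sub-cluster 1, a ratio of 6.25. Ctsf was at 78.6 ± 5.78 CPM against 19.7 ± 1.2. Tpp1 was at 428 ± 35.9 CPM against 198 ± 27.7. Ctsd was at 1763 ± 76.2 CPM against 987 ± 82.5. Of the 17 higher, Mcoln1, Arsa and Cln3 passed the filter through Sub-cluster 4 alone. In each of the 4 genes given with values, the samples of both genotypes lay above all samples of Sub-cluster 1.

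Sub-cluster 2 (6179 cells) had 0 of 30 members higher than Sub-cluster 1 (22.5% of all genes) and 12 lower (10.8%), among them Ctsd, Lamp1 and Lamp2. In Sub-cluster 3, Gla was at 84.5 ± 8.82 CPM against 24.5 ± 1.18 in Sub-cluster 1, and the subset had 11 of 32 members higher (19.4% of all genes), of which Mcoln1 passed the filter through Sub-cluster 3 alone, and 2 lower (13.8%). Sub-cluster 5 had 0 of 29 members higher (12.7%) and 22 lower (44.7%), in cells with a sample median of 5437 to 6474 UMIs. Of the 22, Neu1, Npc1 and Ctsf passed through Sub-cluster 1 alone. Sub-cluster 6 had 14 of 35 higher (17.7%) and 2 lower (31.8%), with Naglu, the enzyme that removes N-acetylglucosamine from heparan sulfate, at 23.7 ± 7.98 CPM against 7.87 ± 0.798. Naglu and Idua passed the filter through Sub-cluster 6 alone, where they were high, so their place among the 14 is no support for a difference. The cells of Sub-cluster 6 also had few UMIs, with a sample median of 3752 to 8934 per cell. Their sample medians of mitochondrial counts were 17.1% to 21.5%. Leaving mitochondrial counts out of the total gave 19 of 35 higher there (25% of all genes on that total) and 2 lower (23%). In Sub-cluster 8, where that median was 90.3% to 91.1%, 0 of 29 were higher (0.588%) and 29 lower (94%), 14 of which passed through Sub-cluster 1 alone. Without mitochondrial counts in the total, 0 of 31 were higher there (0.962% of all genes) and 9 were lower (17.1%). Sub-cluster 7 had 0 of 33 higher (6.42%) and 0 lower (6.79%). Sub-cluster 9, with 3 samples, had 4 of 31 higher (5.39%), Npc2, Lipa, Gusb and Gla, and 0 lower (7.18%). The sub-cluster comparisons rest on clusters made from the same cells and are descriptions.

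**Figure D3:**
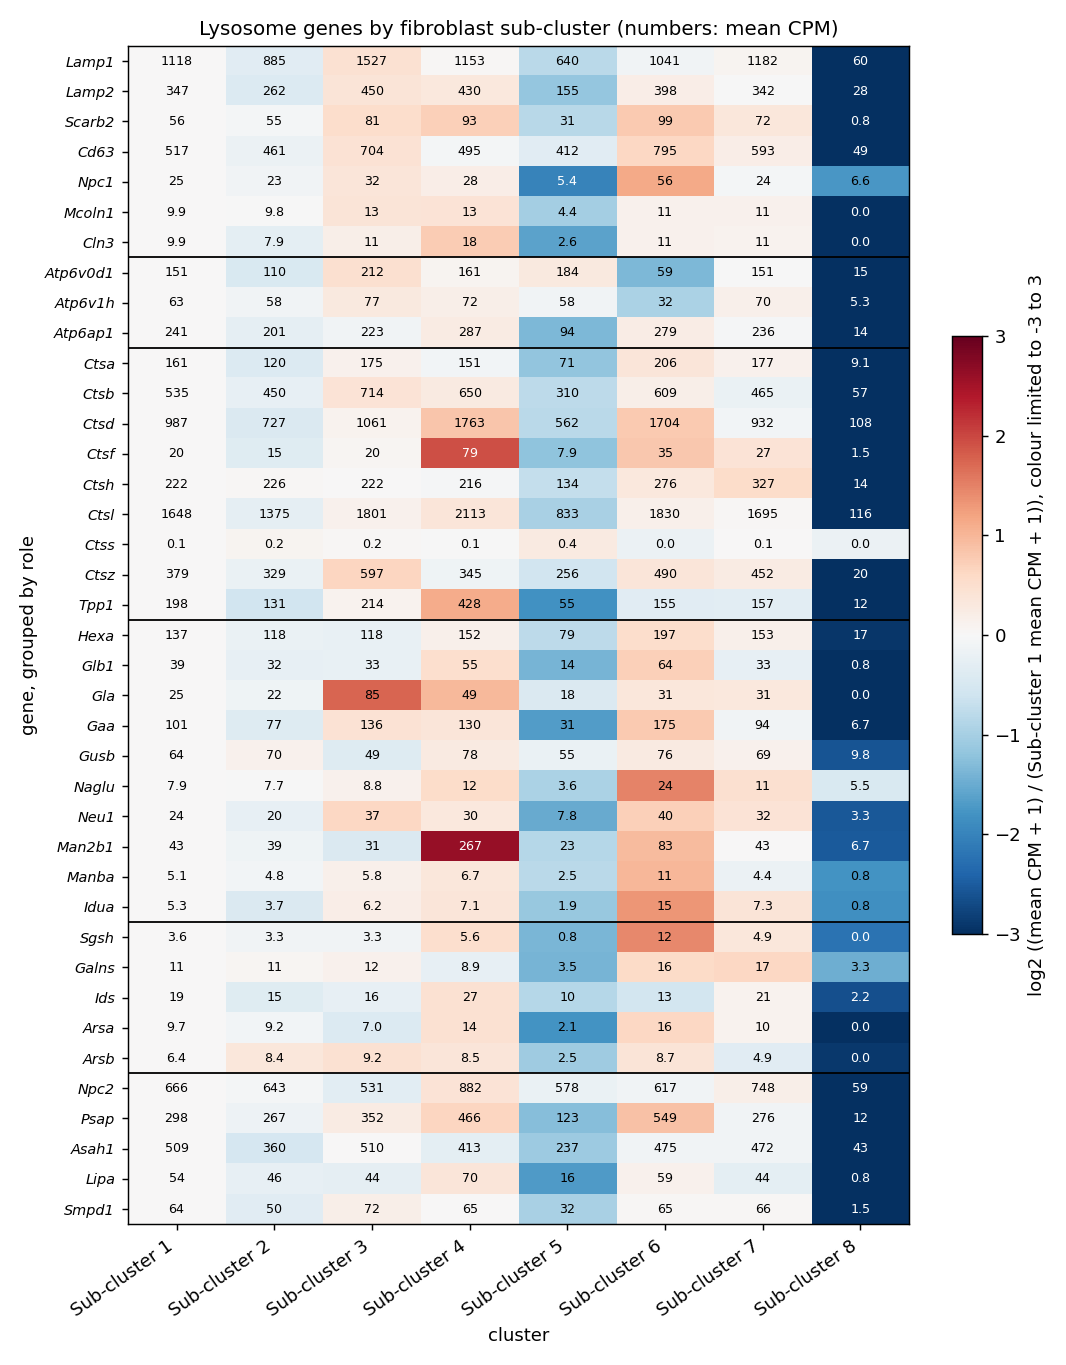
Mean CPM of each lysosome gene (rows, grouped by role) in fibroblast Sub-clusters 1 to 8; colour shows the log2 ratio to Sub-cluster 1 with a pseudocount of 1 CPM. Man2b1 at 267 CPM and Ctsf at 78.6 CPM stand out in Sub-cluster 4, Gla in Sub-cluster 3, and nearly all rows of Sub-cluster 8 are blue, Ctss being close to 0 in both.

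The genotype comparison asked whether loss of Dram2 changed these genes. Dram2 itself (chromosome 3, 106547798 to 106575890, plus strand) was at 33.4, 39.6 and 38.1 CPM in Dram2 wt/wt and at 30.7, 28.3 and 30.1 CPM in Dram2 ko/ko sums over all cells. The values did not overlap, with a log2 fold change of -0.30 ± 0.087 (SE) and a voom-limma adjusted p of 0.301, which ranged from 0.138 to 0.979 over 14 alternatives. The counted 3′ end lies outside the deleted exon, so this level does not check the knockout.

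No lysosome gene was called by genotype. Over all cells, 0 of 39 members passed an adjusted p of 0.05 with voom-limma, the edgeR quasi-likelihood test or DESeq2 (background 0% with voom-limma, 0 genes with edgeR and 381 of 22580 genes with DESeq2), and 1 of 39 was at an unadjusted p under 0.05 with each of the 3 tools, against 7.01% of all 22580 genes with voom-limma, 6.67% with edgeR and 6.28% with DESeq2. The median log2 fold change of the members was -0.03, beside 0.0046 for all genes. In sums over all cells, fewer cells of a type and less RNA per cell cannot be told apart. The summed share was 0.851%, 0.856% and 0.864% in Dram2 wt/wt and 0.871%, 0.913% and 0.845% in Dram2 ko/ko, so the groups overlapped. By cluster, all 3 Dram2 ko/ko shares lay above all 3 Dram2 wt/wt shares in Fibroblast, Pericyte and Sub-cluster 4. They were 0.898%, 0.909% and 0.905% against 0.93%, 0.955% and 0.917% in Fibroblast. In Pericyte cells they were 0.765%, 0.828% and 0.806% against 0.933%, 0.841% and 0.842%. In Sub-cluster 4, whose cells are among the fibroblastic ones, they were 1.11%, 1.07% and 1.11% against 1.16%, 1.16% and 1.14%. These shares are given with no test, and in the other clusters with 2 or more samples of each genotype the groups overlapped. A summed share weights members by abundance. In Sub-cluster 4, Ctsl, the most abundant member there at 2113 CPM, had a log2 fold change of 0.28, with groups that overlapped. Of 33 members at 10 CPM or more there, 1 was higher without overlap, Lamp1 (535 of 8962 genes), and 1 lower, Ctsd (454). Which members carried the differences in share was not tested. By role, the median log2 fold changes over all cells were 0.069 for membrane proteins, -0.0094 for pump subunits, -0.02 for peptidases, -0.039 for glycosidases, -0.12 for sulfatases and sulfamidase, and 0.026 for lipid handling.

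**Figure D4:**
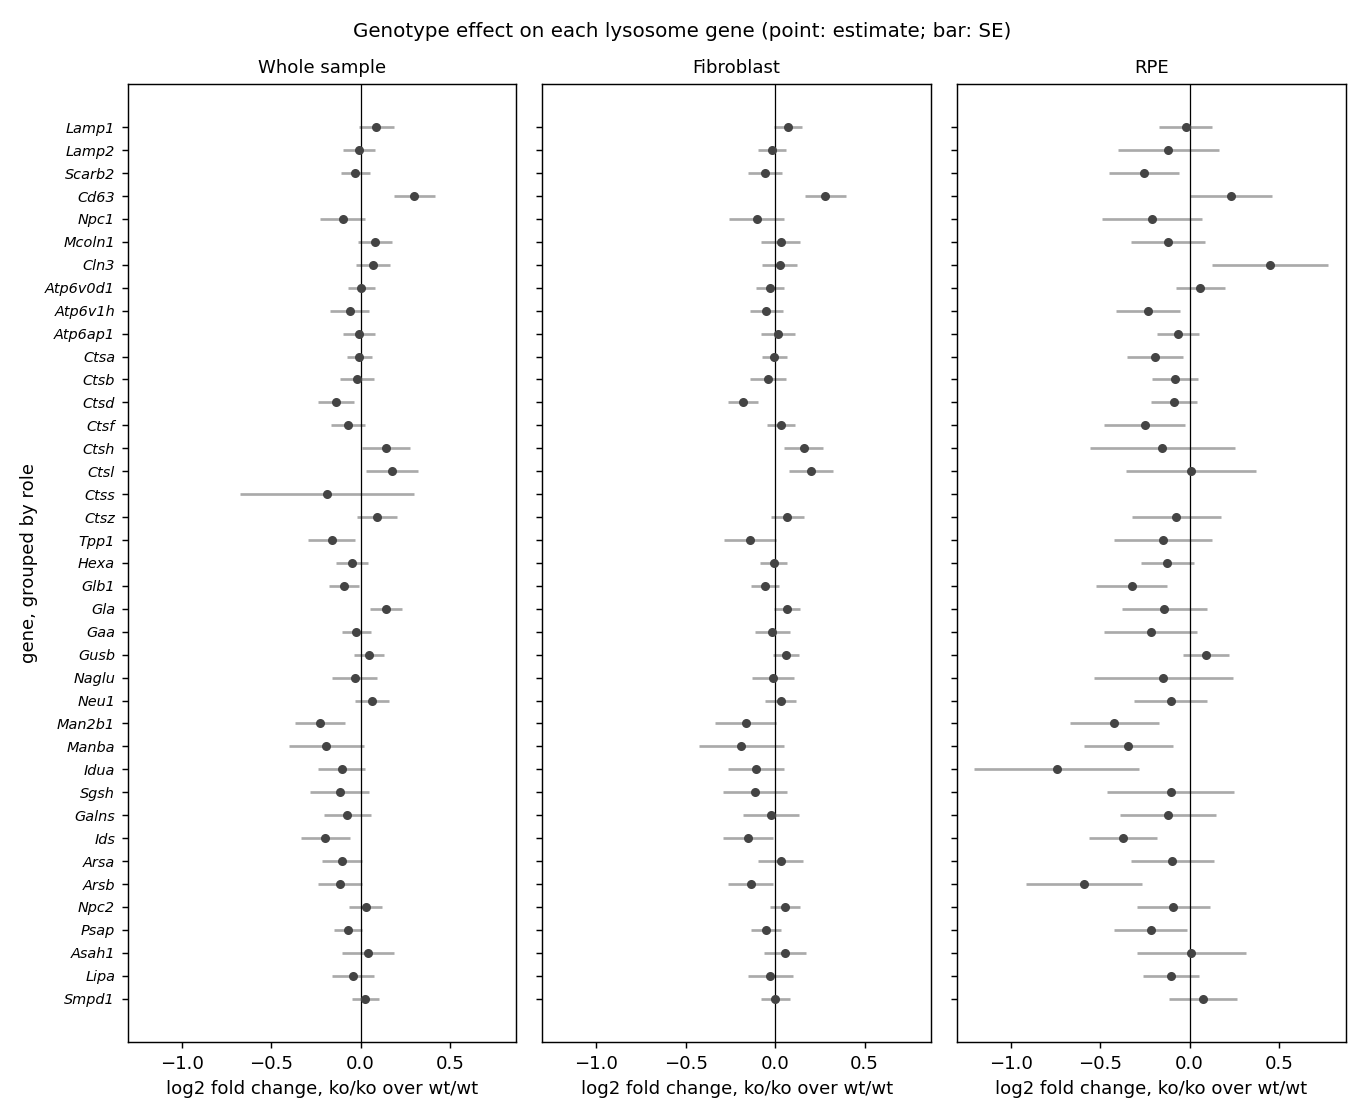
Log2 fold change of Dram2 ko/ko over Dram2 wt/wt (points) with its SE (bars) for each tested lysosome gene, over all cells, in Fibroblast and in RPE. Most estimates lie close to 0, and Cd63 lies at 0.30 over all cells. In RPE 31 of the 38 estimates lie below 0, and 19 of 38 did so without Dram2 ko/ko replicate 3.

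The member with the lowest unadjusted p over all cells was Cd63 (chromosome 10, 128900989 to 128912822, plus strand). It was at 462, 429 and 543 CPM in Dram2 wt/wt and at 648, 549 and 545 CPM in Dram2 ko/ko. All Dram2 ko/ko values lay above all Dram2 wt/wt values, the nearest pair being 543 and 545. It was the only one of 32 members at 10 CPM or more that was higher without overlap (5.66% of all genes), and 0 were lower (4.87%). Its log2 fold change was 0.30 ± 0.11 (SE), with a voom-limma p of 0.0287 and an adjusted p of 0.567, which ranged from 0.335 to 1 over the alternatives. By cell type its log2 fold change was 0.48 in Fibroblast-like, 0.32 in Pericyte, 0.28 in Fibroblast, 0.27 in Fibroblast 2, 0.25 in Fibroblast proliferating and 0.23 in RPE cells. Single samples moved some of these values. In Pericyte cells the estimate was 0.062 and 0.55 when replicates 1 and 2 of Dram2 ko/ko were left out in turn. In RPE it was 0.066 and 0.37 when replicates 2 and 3 of Dram2 wt/wt were left out in turn, and 0.11, 0.15 and 0.42 when replicates 1, 2 and 3 of Dram2 ko/ko were. In Fibroblast 2 it was 0.17 without Dram2 wt/wt replicate 2. With all samples the estimate was -0.11 in Endothelial and -0.04 in Myeloid cells. In both its sign changed when single samples were left out, which in Myeloid cells left 1 sample in a group. None passed the adjusted threshold, and these sums share their libraries. In Fibroblast-like cells Cd63 was at 291, 277 and 279 CPM in Dram2 wt/wt and at 320, 460 and 411 CPM in Dram2 ko/ko, without overlap (voom-limma adjusted p = 0.639, and 0.0763 to 1 over the alternatives).

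The Cd63 count is uncertain, because 50.6% of the words in its last 400 bases also occur in its pseudogene Cd63-ps. Cd63-ps was counted at 97.1, 108 and 103 CPM in Dram2 wt/wt and at 101, 82.7 and 60.3 CPM in Dram2 ko/ko. The log2 ratio of the group means was 0.28 for Cd63 alone and 0.19 for both counts added. With both counts added the groups overlapped over all cells, as Dram2 wt/wt replicate 3 then lay above Dram2 ko/ko replicates 2 and 3. The lack of overlap over all cells thus held for the Cd63 count alone.

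In Fibroblast cells, 0 of 38 members were called (0.00503% of all genes) and 1, Cd63, was at an unadjusted p under 0.05 (7.18%). Without overlap, 1 of 33 was higher (5.51%) and 1 lower (5.1%). The lower one was Ctsd, at 1095, 1228 and 1109 CPM in Dram2 wt/wt and at 993, 964 and 1081 CPM in Dram2 ko/ko, a log2 fold change of -0.18 ± 0.084 (SE, voom-limma adjusted p = 0.77, 0.442 to 1 over the alternatives). The higher one was Gla, at 27.6, 28.3 and 27.3 CPM against 29.3, 28.8 and 29 CPM, a log2 fold change of 0.065 ± 0.072. The Gla groups were narrow and separated by less than 1 CPM.

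In Fibroblast 2, 0 of 38 were called (0.222%) and 1 was at an unadjusted p under 0.05 (6.2%). This was Arsa (chromosome 15, 89472476 to 89477425, minus strand), at 6.59, 7.42 and 7.63 CPM in Dram2 wt/wt and at 5.01, 4.68 and 4.88 CPM in Dram2 ko/ko, from 387 UMIs in all. Its groups did not overlap, the log2 fold change was -0.53 ± 0.17 (SE), and the voom-limma adjusted p was 0.428 (0.37 to 1 over the alternatives). At 10 CPM or more, 1 of 32 members was higher without overlap (5.91%) and 1 lower (5.32%). The lower one was Ctsd, at 1073, 1224 and 1097 CPM against 972, 980 and 1053 CPM (log2 fold change -0.16 ± 0.094, SE). These sums share their libraries with those of Fibroblast, so this is not an independent observation of Ctsd. Ctsh was the higher one, at 187, 180 and 192 CPM against 195, 217 and 202 CPM (0.15 ± 0.093, and 0.085 without Dram2 ko/ko replicate 2). In Fibroblast proliferating cells 0 of 38 were called (0.624%) and 1, Cd63, was at an unadjusted p under 0.05 (6.79%). There 1 of 30 was higher without overlap (5.7%), Gla, and 0 were lower (4.56%). Gla was at 21.4, 22.2 and 21.7 CPM in Dram2 wt/wt and at 24.5, 23.9 and 22.6 CPM in Dram2 ko/ko.

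**Figure D5:**
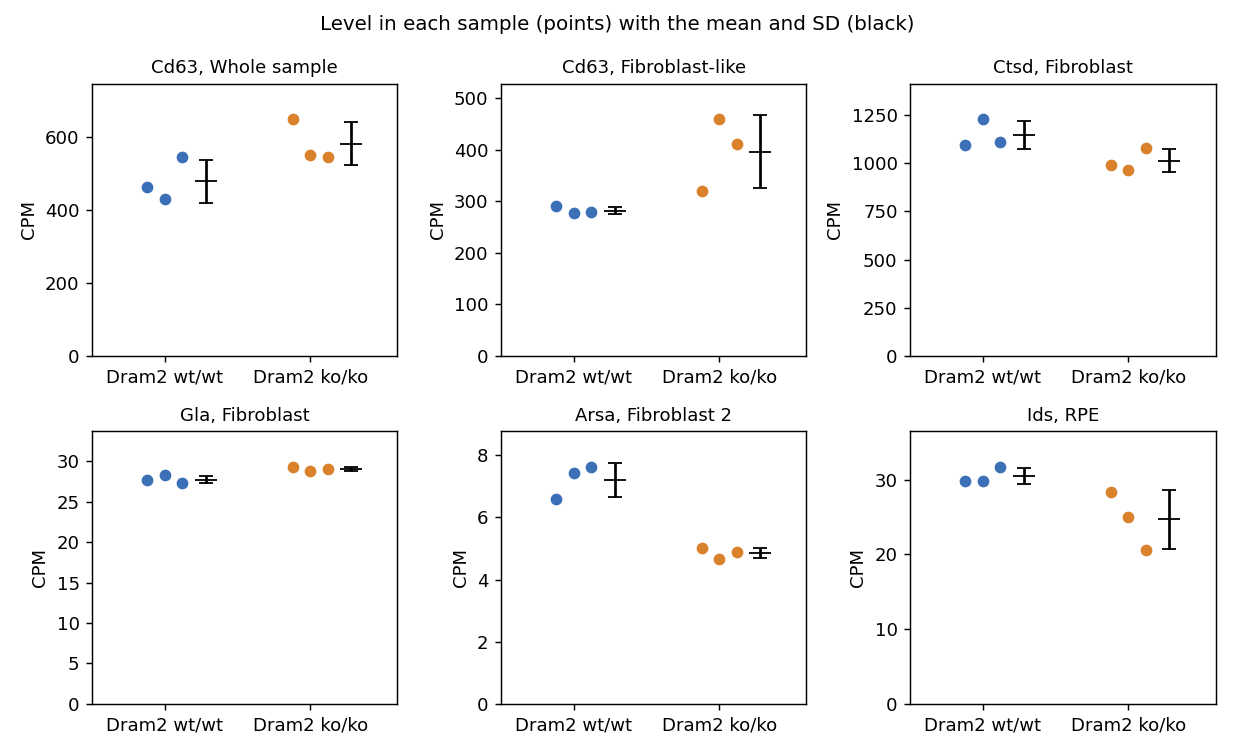
CPM of Cd63, Ctsd, Gla, Arsa and Ids in each sample (points; blue Dram2 wt/wt, orange Dram2 ko/ko) in the named cells, with the mean and SD in black. Only pairs of gene and cells whose groups do not overlap are drawn, so the lack of overlap came with their choice. None of the differences passed the adjusted threshold.

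In RPE cells 0 of 38 members were called (0% of all genes) and 0 were at an unadjusted p under 0.05 (4.65%) with voom-limma, and likewise 0 and 0 with the edgeR quasi-likelihood test (3% of all genes at that unadjusted level) and with DESeq2 (2.46%). Of the 38 estimates 31 were below 0, with a median of -0.12 beside 0.0064 for all genes. The summed share was 0.945%, 0.876% and 0.961% in Dram2 wt/wt and 0.929%, 1.03% and 0.732% in Dram2 ko/ko, and the lowest value was that of Dram2 ko/ko replicate 3, the sample of batch 2. Without that sample 19 of 38 were below 0 and the median was 0.024. At 10 CPM or more, 0 of 32 were higher without overlap (2.53%) and 3 lower (4.58%). Ids, iduronate sulfatase, was at 29.8, 29.9 and 31.7 CPM in Dram2 wt/wt and at 28.4, 25.1 and 20.6 CPM in Dram2 ko/ko, a log2 fold change of -0.37 ± 0.19 (SE), and -0.11 without Dram2 ko/ko replicate 3. Atp6v1h was at 55.7, 51.63 and 55.9 CPM against 51.59, 49.7 and 39.4 CPM, so the nearest pair differed by less than 1 CPM. Its log2 fold change was -0.23, and -0.032 without the sample of batch 2. Ctsb was at 641, 659 and 670 CPM against 631, 626 and 575 CPM, a log2 fold change of -0.080, and -0.010 without that sample. The RPE markers summed to 511 to 1098 CPM in Dram2 wt/wt and to 297 to 1115 CPM in Dram2 ko/ko, and their part in these values was not tested.

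Whether the genotype effect differed between RPE and Fibroblast was tested by a voom-limma fit with an interaction term. Of 38 members 0 differed at an adjusted p of 0.05 (0% of all genes) and 0 at an unadjusted p under 0.05 (1.86%). The median difference, RPE minus Fibroblast, was -0.14 beside 0.027 for all genes, and 0.081 without Dram2 ko/ko replicate 3.

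The remaining types also gave 0 called members with voom-limma, edgeR and DESeq2. In Fibroblast-like cells 0 of 27 were called (0%) and 6 were at an unadjusted p under 0.05 (5.08%). They were Cd63, higher, and Npc1, Tpp1, Man2b1, Scarb2 and Lipa, lower. The mean of Npc1 was 11.1 ± 0.557 CPM for Dram2 wt/wt against 5.05 ± 1.31 for Dram2 ko/ko (SD, n = 3 each), from 49 UMIs. Dram2 ko/ko replicate 1 gave 319 of the 1121 Fibroblast-like cells and 89 of the 168 cells of Sub-cluster 8, most of whose counts were mitochondrial. Sub-cluster 8 held 34 cells in Dram2 ko/ko replicate 3 and 5, 17 and 23 in Dram2 wt/wt. Its part in the Fibroblast-like sums was not tested. Without Dram2 ko/ko replicate 1, only Cd63 was at an unadjusted p under 0.05. With edgeR 4 members (4.32% of all genes) and with DESeq2 1 member (2.74%) were at that level. In Myeloid cells (2 samples against 2) 0 of 30 were called (0.0296%) and 3 were at an unadjusted p under 0.05 (5.94%), all lower, namely Atp6v1h, Psap and Ctsz. Psap was at 993 and 1050 CPM in Dram2 wt/wt and at 561 and 763 CPM in Dram2 ko/ko. With edgeR 2 (5.32% of all genes) and with DESeq2 0 members (1.73%) were at that level. In Endothelial cells 0 of 28 were called (0%) and 1, Atp6v1h, was lower at an unadjusted p under 0.05 (5.24%), with 1 by edgeR (5.12%) and 0 by DESeq2 (2.84%). In Pericyte cells 0 of 31 were called (0.0118%) and 0 were at an unadjusted p under 0.05 (5.9%), and edgeR (5.09%) and DESeq2 (2.67%) gave 0 as well.

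The fibroblast sub-clusters gave 0 called members too, with each of the 3 tools. Their cells are among those of the fibroblastic types above, so these results are not separate from those. In Sub-clusters 1, 2 and 3, 0 of 38 were called in each (0.32%, 0.55% and 0.00634% of all genes). At an unadjusted p under 0.05 stood Cd63 in Sub-cluster 1 (7.21%) and in Sub-cluster 2 (6.83%), and 0 members in Sub-cluster 3 (5.38%), where edgeR gave 0 (5.41%) and DESeq2 1 (4.42%). In Sub-cluster 4, 0 of 38 were called (0.722%) and 1 was at an unadjusted p under 0.05 (6.54%). This was Ctsl, at 2071, 1724 and 1920 CPM in Dram2 wt/wt and at 2429, 2490 and 2046 CPM in Dram2 ko/ko, which overlapped. In Sub-cluster 5, 0 of 26 were called (0%) and 3 were at that level (7.48%), Cd63 higher and Scarb2 and Tpp1 lower. In Sub-cluster 6, 0 of 29 were called (0%) and 3 were at that level (4.63%), Lipa, Npc1 and Atp6v1h, all lower. In Sub-cluster 7, 0 of 30 were called (0.402%) and 1 was at that level (7.22%), Npc2, the soluble cholesterol carrier, which was higher. Sub-cluster 8 left 1 member to test, which was not called, and Sub-cluster 9 had too few samples.

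Other genes of the pathway were counted in the same way. Over all cells, voom-limma called 0 of 17 MiT/TFE factors and their regulators, 0 of 16 other pump subunits, 0 of 25 other hydrolases and activators, 0 of 13 tested other membrane proteins, 0 of 10 mannose 6-phosphate sorting genes and 0 of 2 DRAM genes (0% of all genes). At an unadjusted p under 0.05, where 7.01% of all genes stood, were Lamtor1, higher, and Dram2, lower. Lamtor1, which anchors the Ragulator complex to the lysosome, was at 153, 142 and 146 CPM in Dram2 wt/wt and at 170, 177 and 171 CPM in Dram2 ko/ko. The groups did not overlap, with a log2 fold change of 0.25 ± 0.079 (SE) and a voom-limma adjusted p of 0.375.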

How the data were processed

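The authors deposited UMI counts per gene and cell, made with Cell Ranger 3.1.0 on GRCm38 per the submitters' processing notes, together with cell type and sub-cluster names. The deposited counts were not normalised. Per the study's methods, exon reads alone were counted for single cells, and the names came from Louvain clusters made in Seurat after the batches had been integrated. Doublets were not removed here, and the filters on cells were not given in the sources used here. Of 52636 gene identifiers, 52403 were matched to a symbol through a table of gene names, and positions came from a GENCODE annotation of GRCm38. The annotation used for counting was not given in the sources used here. Counts were summed per sample and cluster where a sample held 10 or more cells, with 2 or more samples per genotype. Sums were filtered with filterByExpr, scaled by TMM (edgeR 4.0.16) and tested with voom-limma (limma 3.58.1, R 4.3.3), with Benjamini-Hochberg adjustment over all genes tested. Alternatives were the edgeR quasi-likelihood test, DESeq2 1.42.0, RLE size factors, library size alone, no filter, a batch covariate, a replicate block, a cell filter (500 or more genes and at most 20% mitochondrial counts, which left out 469 of 25428 cells), 30 cells in place of 10, and leaving out each sample. Leaving out mitochondrial counts and adding Cd63-ps to Cd63 were chosen after seeing the data. The voom-limma genotype fit was run on simulated counts for all cells, Fibroblast and RPE, with an assumed spread not estimated from these data. Other clusters, the other tools and the interaction fit were not covered by it. The total counts per sample were 96808998 to 122746184 UMIs over all cells, and sums per cluster were smaller, for example 176328 UMIs in Myeloid cells of Dram2 ko/ko replicate 2. For genotype, the genes named were those called, and up to 3 members with the lowest p among those without overlap, over all cells and in Fibroblast, Fibroblast proliferating, Fibroblast 2 and RPE. For cell types they were those at least 3-fold from Fibroblast, with Lamp1, Lamp2, Ctsd, Ctsb, Ctsl and Psap in every type, and beside them Dram2 and 2 pathway genes with the lowest p. Other genes were named after their values were seen. The members, lists and tests were chosen with earlier results of these data known.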

Additional observations from a re-analysis of the deposited data

Results flagged for a closer look

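The Dram2 ko/ko values of Mcoln1 lay above all Dram2 wt/wt values in 1 fibroblast sub-cluster and below all of them in another. In Sub-cluster 7 it was at 11, 7.55 and 3.85 CPM in Dram2 wt/wt and at 15.7, 11.6 and 15.6 CPM in Dram2 ko/ko, a log2 ratio of means of 0.94. In Sub-cluster 6 it was at 13.5, 15.2 and 12.4 CPM against 11.7, 3.69 and 9.62 CPM, a log2 ratio of -0.72. At a mean of 10 CPM or more, 3 of 34 members, among them Naglu and Mcoln1 at under 10 CPM in Dram2 wt/wt, were higher without overlap in Sub-cluster 7 (4.1% of all genes) and 0 were lower (8.17%). In Sub-cluster 6, 0 of 37 were higher (4.85%) and 4 were lower (4.67%). The Mcoln1 values rest on 54 and 30 UMIs, Mcoln1 was below the filter on low counts in both, its mean reached 10 CPM in 1 genotype alone in each, and the difference between the sub-clusters was not tested.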

How the results depend on the processing

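The number of lysosome genes called by genotype was 0 in all 244 alternative fits over the cell types, sub-clusters and all cells, and in all 8 alternatives of the test between RPE and Fibroblast. Of the 244 fits, 8 left 1 sample in a group (4 each in Myeloid cells and Sub-cluster 8). There the lone sample was assumed to vary like the other group, and these 8 say nothing about stability. The smallest adjusted p of a member over the 244 fits was 0.0763, for Cd63 in Fibroblast-like cells without Dram2 ko/ko replicate 1. With the replicate number as a block, 0 members were called in every cluster where this could be fitted. Same-numbered samples correlated at 0.099, -0.43 and 0.028, and unlike-numbered ones at -0.44 to 0.48. With so few samples these values cannot decide whether the numbers pair them. The batch covariate marked Dram2 ko/ko replicate 3 alone, so its fit nearly repeats the fit without that sample and is not a separate check. The log2 fold change of Cd63 changed sign in Endothelial cells with that covariate (0.19). When single samples were left out it ranged from -0.27 to 0.20 in Endothelial cells, from -0.40 to 0.33 in Myeloid cells and from -0.041 to 0.17 in Sub-cluster 7. The sign changed in Endothelial cells when Dram2 wt/wt replicate 2 (0.073) was left out, or when replicate 3 of Dram2 ko/ko (0.20) was. In Myeloid cells it did so for replicate 3 of Dram2 wt/wt (0.33) and replicate 2 of Dram2 ko/ko (0.046), and in Sub-cluster 7 for replicate 2 of Dram2 wt/wt (-0.041). The other 377 of 383 alternatives of named genes kept their sign. Of 244 alternative medians of the members, 16 moved by more than the spread between samples. The summed share moved with the mean over cells to 0.839% over all cells, 0.959% in Fibroblast 2, 2.46% in Myeloid, 0.983% in Sub-cluster 3 and 0.903% in Sub-cluster 6. The cell filter moved it to 1.3% in Sub-cluster 6. Leaving mitochondrial counts out of the total, chosen after seeing the data, moved it to 0.895% over all cells, 0.949% in Fibroblast, 0.905% in Sub-cluster 1, 1.17% in 4, 1.33% in 6, 0.563% in 8 and 0.961% in 9. The cause of the other moves was not tested. The 30-cell minimum could not be run in Myeloid, Pericyte and Sub-clusters 7 and 8, nor the block and the cell filter in Sub-cluster 8. The counts behind single members were small in places, such as the 49 UMIs of Npc1 in Fibroblast-like cells.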
